A study of Homo sapiens with 6 samples.

Results

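The genes described here are the co-activator YAP1, its DNA-binding partner TEAD1 and 8 classical target genes of the pair: CCN1, CCN2, ANKRD1, AMOTL1, AMOTL2, AJUBA, LATS2 and AXL. They were chosen by name, with earlier results of these data known. Their Ensembl identifiers were found for all 10 among the 57500 genes of the count tables. The tables come from RNA sequencing of HepG2 cells, an established human hepatocarcinoma line, of WT genotype. The 3 vehicle libraries and the 3 libraries of cells given glycine (10 mM) were both collected at 24 h, from the same line. All cells grew in a medium that already holds some glycine, so the comparison is of added against basal glycine. The study is about cyanide production by mammalian cells, and the comparison asks which transcripts change when glycine is supplied in excess.

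YAP and its paralog TAZ (gene WWTR1) do not bind DNA themselves; they enter the nucleus and act through the TEAD proteins, which recognise a short motif near promoters and in enhancers. The Hippo pathway holds them back: the kinases MST1 and MST2 (STK4 and STK3) activate LATS1 and LATS2, and these phosphorylate YAP and TAZ, which then stay in the cytoplasm. This control acts on the protein, so the mRNA of YAP1 does not report its activity, and target transcripts such as CCN1, CCN2 and ANKRD1 are commonly used as readouts. Several targets are themselves brakes on YAP and form a negative feedback. In the liver the pathway is known for its control of organ size.

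Among the 8 target genes, CCN1, CCN2, ANKRD1 and AXL rose with glycine, while YAP1 and TEAD1 did not change beyond the replicate spread. CCN1, CCN2 and ANKRD1 rose between 1.60- and 1.67-fold, and AXL rose 2.13-fold. AMOTL1, a transcript near the detection limit, was called higher at 2.88-fold. It passed the filter on low counts in 3 glycine libraries but only 1 vehicle library. AMOTL1 therefore enters the counts and the median below mainly through the group in which it is high. AMOTL2 and LATS2, which restrain YAP, and AJUBA, which restrains the LATS kinases, did not pass the test. Of the 10 genes, 5 were called higher, AMOTL1 among them, and 0 lower (edgeR quasi-likelihood test, Benjamini-Hochberg adjusted p below 0.05 over 15492 tested genes), beside 6.71% of all tested genes called higher and 6.54% called lower. At an unadjusted p below 0.05 there were 5 higher and 1 lower (AJUBA), and DESeq2 and limma-voom called 4 and 5 higher and 0 lower. In 5 genes every glycine library lay above every vehicle library, which held for 17.2% of all tested genes. In 1 gene every glycine library lay below, which held for 14.4%. The median log2 change was 0.35 over the 10 genes and 0.0035 over all tested genes. Because the genes were chosen with earlier results known, these shares and medians are descriptions and not a test of the set.

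**Figure D1:**
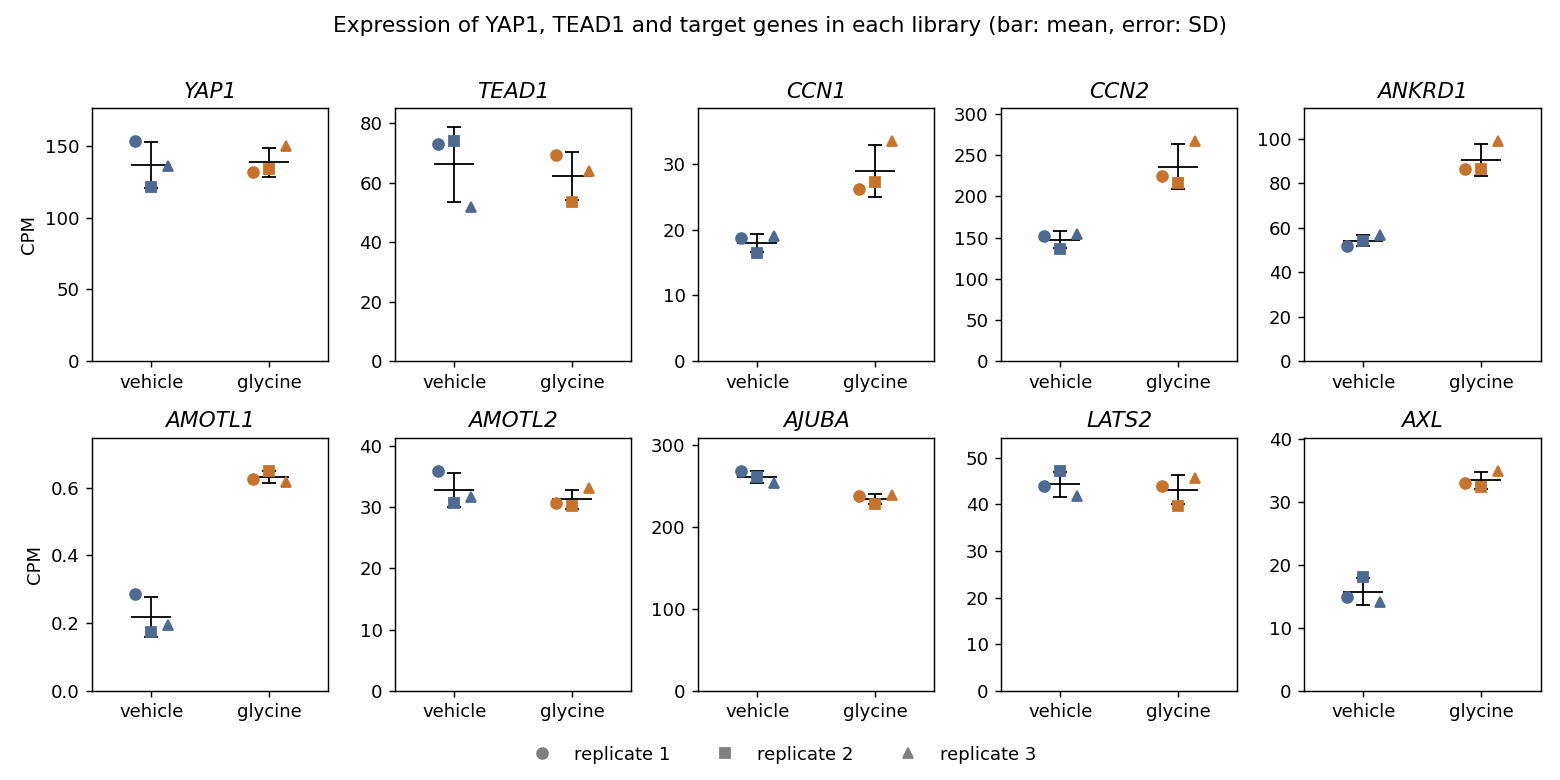
Expression in CPM, counts scaled to a common library size (y axis, linear from 0), of the 10 genes in each vehicle (blue) and glycine (orange) library, with marker shapes for the replicate number, horizontal bars for the mean and error bars for the SD (n = 3). The glycine points lie above all vehicle points for CCN1, CCN2, ANKRD1, AMOTL1 and AXL, below them for AJUBA, and among them for YAP1, TEAD1, AMOTL2 and LATS2.

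The libraries held between 31795489 and 58815986 counts, and 1 count was worth between 0.017 and 0.0315 CPM (counts scaled to a common library size). Hepatocyte markers, 8 of 8 tested, summed to between 27260 and 31380 CPM with vehicle and between 23670 and 27260 CPM with glycine. Of the 8, 2 were called lower, APOA1 and TTR (25%, beside 6.54% of all tested genes). The markers of mesenchymal, endothelial and blood cells, 6 of 9 tested, summed to between 34.3 and 38.0 CPM with vehicle and between 27.9 and 29.04 CPM with glycine. PDGFRB was the largest part of this sum, at a mean of 26.9 CPM with vehicle and 17.0 CPM with glycine. Of the 6 tested, 2 were called higher (COL1A1 and CD68) and 2 lower (PDGFRB and VWF). That is 33.3% each, beside 6.71% and 6.54% of all tested genes. COL1A1 rose from 2.15 to 4.39 CPM and CD68 from 1.33 to 2.07 CPM. CD68 shared 85.8% of its exon bases with other genes. COL1A2, COL3A1 and PTPRC were at no more than 11 counts in any library. All libraries came from the same established line. The part of these shifts in the results was not tested, and in bulk RNA a shift in all cells cannot be told apart from a shift in some of them. Exons of 6 of the 10 genes shared between 0.836% (AJUBA) and 9.98% (YAP1) of their bases with another gene, and those other genes had 52 counts beside CCN2, 8 beside AXL and 0 beside the rest over all libraries.

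Promoter sequences were looked up because these genes share a regulator with a known motif, and the promoters shown here are those of 3 genes that rose and of 1 target that was not called, each with a match. The RefSeq promoter table (GRCh38.p14) held 11 starts of 8 of the 10 genes, and none was read for CCN1 and TEAD1. The letters GGAATG, the core of the TEAD motif, were searched on both strands in the 250 bases before each start, where the reverse complement reads CATTCC. Capitals mark these matches, and each sequence runs 5′ to 3′ on the strand of the gene.
CCN2 (chr6:131951373-131951622, minus strand): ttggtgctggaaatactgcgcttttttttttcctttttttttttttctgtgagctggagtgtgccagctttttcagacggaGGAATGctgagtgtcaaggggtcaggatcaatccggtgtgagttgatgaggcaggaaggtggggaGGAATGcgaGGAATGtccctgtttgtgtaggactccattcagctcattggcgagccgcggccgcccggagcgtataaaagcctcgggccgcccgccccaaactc
ANKRD1 (chr10:90921088-90921337, minus strand): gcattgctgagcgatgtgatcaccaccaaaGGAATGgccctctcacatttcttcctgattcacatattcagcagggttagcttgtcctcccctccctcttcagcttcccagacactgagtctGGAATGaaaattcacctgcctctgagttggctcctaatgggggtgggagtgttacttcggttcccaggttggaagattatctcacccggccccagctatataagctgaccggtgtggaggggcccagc
AXL (chr19:41226505-41226754, plus strand): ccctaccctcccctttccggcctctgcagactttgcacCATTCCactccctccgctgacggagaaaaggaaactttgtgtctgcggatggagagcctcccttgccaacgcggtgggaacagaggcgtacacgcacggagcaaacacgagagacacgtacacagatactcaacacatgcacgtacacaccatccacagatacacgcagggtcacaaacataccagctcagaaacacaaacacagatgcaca
AMOTL2 (chr3:134374448-134374697, minus strand): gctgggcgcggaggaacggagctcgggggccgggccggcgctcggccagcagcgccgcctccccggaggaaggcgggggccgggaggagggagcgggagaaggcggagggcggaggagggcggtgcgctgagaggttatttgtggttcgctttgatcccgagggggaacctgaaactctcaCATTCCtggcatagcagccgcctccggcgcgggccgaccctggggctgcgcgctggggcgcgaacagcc

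CCN2 held 3 matches, whose first bases lay 169, 104 and 95 bases before the start, and ANKRD1 held 2, at 220 and 128 bases. Of the 35116 promoters in the table, 11.9% held at least 1 match, 0.94% held 2 or more and 0.0826% held 3 or more. AXL had 1 match before the start shown, at 212 bases, and 0 before its other start, and AMOTL2 had 1 before the start shown, at 69 bases, and 0 before its other start. YAP1 (1 match, at 162 bases) and AJUBA (1 match, at 59 bases, before 1 of its 2 starts) also held the motif. AMOTL1 and LATS2 held 0 in this window. Matches therefore stood before 6 of the 11 starts, which is the count to set beside the 11.9% of all promoters. These starts belong to 6 of the 8 genes with a sequence, both among those that rose and among those that were not called. The AP-1 motif TGANTCA, which is often found near TEAD motifs, occurred once, before ANKRD1, beside 6.57% of all promoters, and the CArG box of SRF was not found before any of the 11 starts, beside 1.16% of all promoters. A match of letters is a description and does not show binding, and enhancers were not examined.

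The transcript of YAP1 itself (chr11:102110461-102233423, plus strand) was abundant and steady. It stood at 153, 122 and 136 CPM in vehicle libraries 1, 2 and 3 and at 132, 134 and 150 CPM in glycine libraries 1, 2 and 3. The ranges of the groups overlapped. The log2 change was 0.02 ± 0.084 (SE, n = 3 per group), with a 95% interval from -0.16 to 0.20 and an adjusted p of 0.921 in edgeR.

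TEAD1 (chr11:12674591-12944483, plus strand) encodes a TEAD factor through which YAP reaches DNA. Vehicle libraries held 72.9, 73.9 and 51.7 CPM and glycine libraries 69.3, 53.6 and 63.9 CPM. The lowest values were in vehicle library 3 and glycine library 2, so the spread lay within the groups. The change was -0.09 ± 0.123 on the log2 scale, with an interval from -0.36 to 0.17 and an adjusted p of 0.686 in edgeR. The TEAD1 gene model is 10279 bases long, and the 2670 tested genes longer than 8000 bases had their lowest median log2 deviations, -0.0694 and -0.0737, in those same 2 libraries. With the length trend removed, a setting chosen after seeing the data, TEAD1 was at -0.06 (adjusted p = 0.74 in edgeR). The part of the trend in the spread of the TEAD1 values was not tested.

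The other factors of the family did not pass the test either. Of 10 listed YAP, TAZ, TEAD and VGLL genes 7 were tested, YAP1 and TEAD1 among them. In edgeR 0 were called in either direction, as in DESeq2 and limma-voom, with 0 at an unadjusted p below 0.05. Of all tested genes 6.71% were called higher and 6.54% lower, so 0 calls among 7 genes is near the background. WWTR1, which encodes TAZ, had a log2 change of -0.14 ± 0.068 (adjusted p = 0.196). The changes of TEAD2, TEAD3 and TEAD4 were -0.03, -0.10 and 0.09, and that of VGLL4, a TEAD-binding competitor of YAP, was 0.16 (adjusted p between 0.299 and 0.822 for these 4 genes). For TEAD3 every glycine library lay below every vehicle library, which held for 14.4% of all tested genes. VGLL1 and VGLL2 had 0 counts in every library, which allows up to 0.0944 CPM in the shallowest library, and VGLL3 had no more than 9 counts.

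Per kilobase of gene model, TEAD4 was the most abundant TEAD transcript, at 39.6 CPM per kilobase in the vehicle libraries against 24.4 for TEAD3, 9.72 for TEAD2 and 6.44 for TEAD1. The level of TEAD4 was 6.32 ± 1.46 times that of TEAD1 with vehicle and 7.02 ± 1.09 times with glycine (mean ± SD of the ratio within a library, n = 3). YAP1 exceeded WWTR1 by 1.80 ± 0.144 times and 2.01 ± 0.0329 times. TEAD1 was therefore the least abundant of the 4 TEAD transcripts in both groups.

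Among the target genes, CCN2 (chr6:131948176-131951373, minus strand) was the most abundant per kilobase. It encodes connective tissue growth factor, a secreted matricellular protein. Vehicle libraries held 152, 136 and 155 CPM, and glycine libraries 225, 216 and 267 CPM. The lowest glycine library lay well above the highest vehicle library. CCN2 rose by 0.68 ± 0.084 on the log2 scale, with an interval from 0.50 to 0.86 and an adjusted p of 0.000149 in edgeR.

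CCN1 (chr1:85580761-85583962, plus strand) encodes CYR61, another matricellular protein of the same family. It stood at 18.7, 16.5 and 19.0 CPM with vehicle and at 26.2, 27.3 and 33.5 CPM with glycine. The ranges were separate, with vehicle library 2 lowest and glycine library 3 highest, as for CCN2. Its log2 change of 0.68 ± 0.097 (interval 0.47 to 0.89, adjusted p = 0.000488 in edgeR) was nearly the same as that of CCN2. The rest of the CCN family was nearly silent: CCN3, CCN4 and CCN5 had no more than 2 counts in any library and CCN6 no more than 6, so none could be tested.

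ANKRD1 (chr10:90912096-90921276, minus strand) encodes an ankyrin repeat protein best known as a stress-induced gene of heart muscle. Vehicle libraries held 51.7, 54.0 and 56.6 CPM and glycine libraries 86.4, 86.3 and 98.8 CPM. The replicates were tight in both groups and did not overlap. ANKRD1 rose by 0.74 ± 0.072 on the log2 scale (interval 0.59 to 0.90, adjusted p = 1.81e-05 in edgeR). Its paralogs ANKRD2 and ANKRD23 were too low to test, with no more than 2 and 14 counts in any library.

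The 3 genes rose by like amounts. Within a library, CCN2 exceeded CCN1 per kilobase by 8.57 ± 0.0663 times with vehicle and by 8.57 ± 0.393 times with glycine, and it exceeded ANKRD1 by 2.31 ± 0.18 and 2.20 ± 0.0839 times. The ratio of CCN2 to YAP1 was 2.91 ± 0.212 with vehicle and 4.58 ± 0.22 with glycine. These pairs of genes were chosen after their values were seen, and the ratios are given as descriptions without a test.

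**Figure D2:**
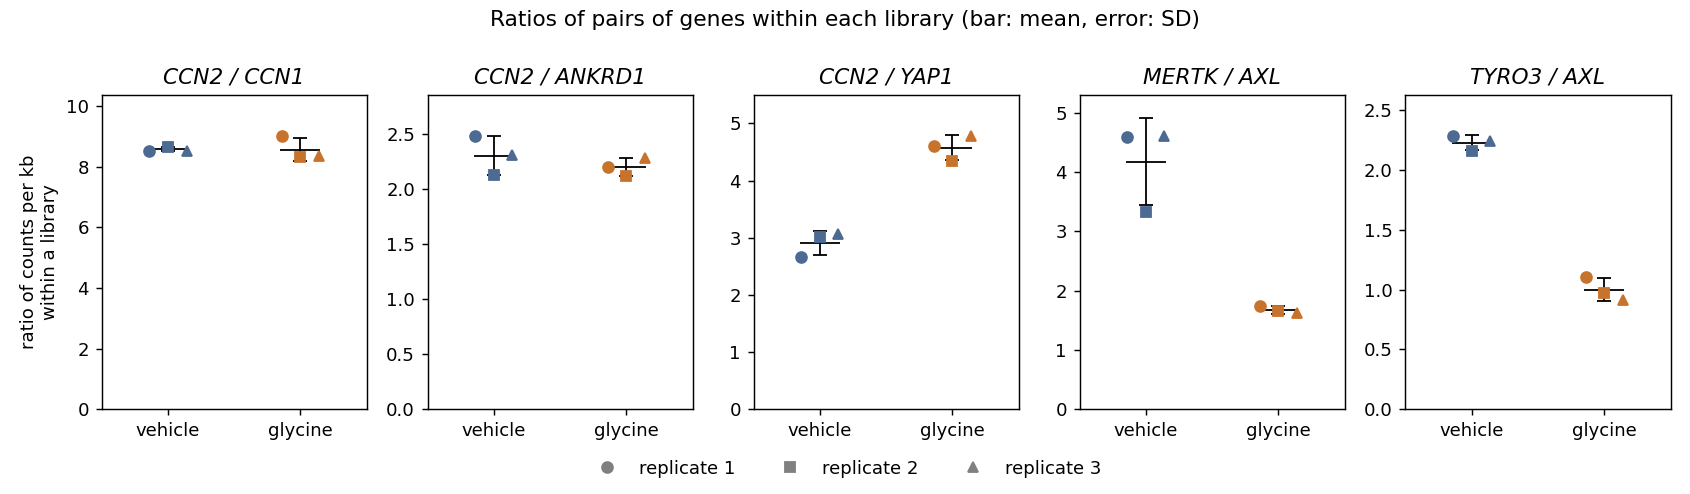
Ratios of counts per kilobase of pairs of genes within each library (y axis, linear from 0), for vehicle (blue) and glycine (orange), with bars for the mean and error bars for the SD (n = 3). CCN2 to CCN1 averages 8.57 in both groups, whereas CCN2 to YAP1 moves from 2.91 to 4.58 and MERTK to AXL from 4.18 to 1.67.

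AXL (chr19:41219203-41261766, plus strand) had the smallest p-value of the 10 genes and ranked 48 of all tested genes. It encodes a receptor tyrosine kinase of the TAM family (TYRO3, AXL, MERTK), whose ligand is GAS6. The vehicle libraries stood at 14.9, 18.1 and 14.02 CPM and the glycine libraries at 33.0, 32.3 and 34.9 CPM. All glycine libraries exceeded every vehicle library. The log2 change was 1.09 ± 0.091 (interval 0.89 to 1.29, adjusted p = 5.80e-06 in edgeR).

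The other TAM receptors did not rise. MERTK was lower in every glycine library than in any vehicle library, at a log2 change of -0.21 ± 0.068, but missed the threshold (adjusted p = 0.0609 in edgeR, called lower in 3 of 15 alternative settings, DESeq2 among them at 0.0483), and TYRO3 was at -0.07 ± 0.086 (adjusted p = 0.669). On the per kilobase scale MERTK was 4.18 ± 0.736 times as abundant as AXL with vehicle and 1.67 ± 0.0647 times with glycine. TYRO3 went from 2.23 ± 0.0627 times to 0.9998 ± 0.0974 times the level of AXL. AXL was thus the least abundant TAM transcript in the vehicle libraries and level with TYRO3 in the glycine libraries.

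AMOTL1 (chr11:94706431-94876753, plus strand) encodes an angiomotin-like scaffold of cell junctions that can bind YAP and keep it in the cytoplasm. It had 10, 6 and 7 counts in the vehicle libraries and 20, 38 and 26 counts in the glycine libraries, or 0.285, 0.172 and 0.195 CPM against 0.627, 0.649 and 0.616 CPM. The groups did not overlap, but the level was at the bottom of the tested range. AMOTL1 rose by 1.53 ± 0.307 on the log2 scale (interval 0.86 to 2.19, adjusted p = 0.00567 in edgeR). It passed the filter on low counts (0.28 CPM) in all 3 glycine libraries and in 1 vehicle library, so it entered the test mainly through the group in which it is high. With a filter of 1 CPM it was not tested, and the DESeq2 Wald test gave it no adjusted p.

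AMOTL2 (chr3:134355874-134375479, minus strand), the more abundant angiomotin-like gene, did not follow. Vehicle libraries held 36.0, 30.7 and 31.7 CPM and glycine libraries 30.7, 30.3 and 33.1 CPM. These ranges overlapped. The log2 change was -0.07 ± 0.076, with an interval from -0.23 to 0.10 and an adjusted p of 0.631 in edgeR. Per kilobase AMOTL2 was 261 ± 45.2 times as abundant as AMOTL1 with vehicle and 83.5 ± 6.13 times with glycine. The family founder AMOT was at -0.54 ± 0.183 and missed the threshold (adjusted p = 0.0731), at 1.45 to 1.78 CPM with vehicle and 1.07 to 1.28 CPM with glycine.

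AJUBA (chr14:22971174-22982642, minus strand) encodes a LIM-domain scaffold that binds LATS kinases and limits their action on YAP. In CPM it was the most abundant of the 10 genes in the vehicle libraries, and CCN2 reached its level with glycine. AJUBA stood at 269, 261 and 254 CPM with vehicle and 237, 228 and 239 CPM with glycine. Every glycine library was below every vehicle library. The difference was small, at -0.16 ± 0.061 on the log2 scale (interval -0.29 to -0.03), and it missed the adjusted threshold (adjusted p = 0.112 in edgeR). Of its paralogs, WTIP was higher in every glycine library at 0.30 ± 0.099 (adjusted p = 0.0603, or 0.0347 with the replicate block, and called higher in 4 of 15 alternative settings) and LIMD1 was at 0.12 ± 0.091 (adjusted p = 0.430).

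LATS2 (chr13:20973032-21061547, minus strand), the kinase that phosphorylates YAP and is itself a YAP target, stood at 44.0, 47.2 and 41.8 CPM with vehicle and at 43.9, 39.7 and 45.8 CPM with glycine. The groups overlapped. Its log2 change was -0.04 ± 0.074 (interval -0.20 to 0.12, adjusted p = 0.775 in edgeR). LATS1, the paralog, was at -0.06 ± 0.099 (adjusted p = 0.737 in edgeR), and LATS2 was 3.16 ± 0.44 times as abundant per kilobase with vehicle and 3.18 ± 0.119 times with glycine. Over the paralogs of the 10 genes, 10 of 16 were tested and 0 were called in edgeR. Of all tested genes 6.71% were called higher and 6.54% lower, so this count is near the background. At an unadjusted p below 0.05 there were 1 higher and 2 lower, beside 4225 of all 15492 tested genes in both directions together. DESeq2 called 1 lower (MERTK) and limma-voom 0.

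**Figure D3:**
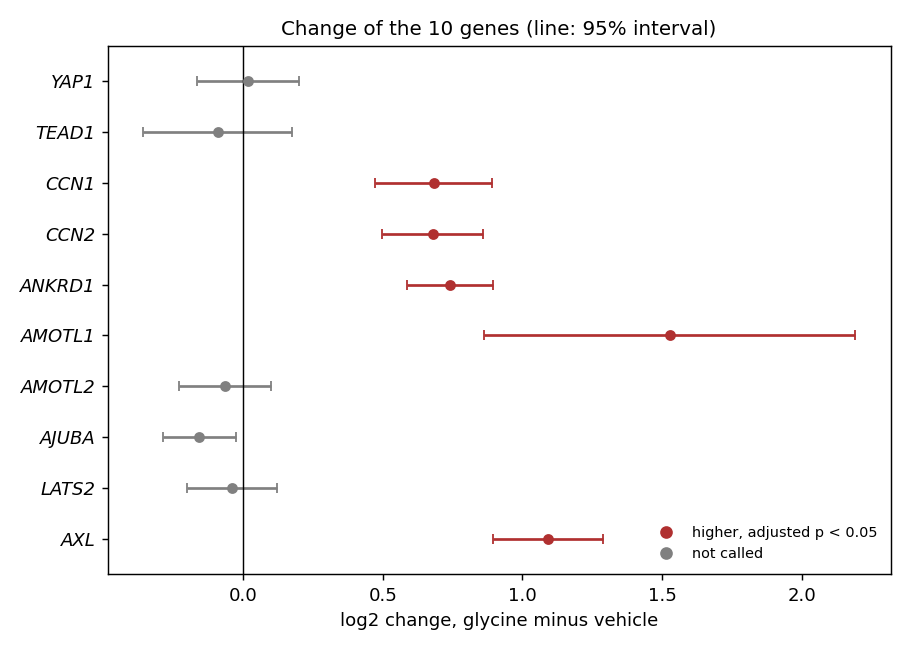
Log2 change of the 10 genes, glycine minus vehicle (x axis), with lines for the 95% interval from edgeR (n = 3 per group), red for genes called higher and grey for genes not called. The intervals of CCN1, CCN2 and ANKRD1 lie between 0.47 and 0.90, that of AXL between 0.89 and 1.29 and the wide one of AMOTL1 between 0.86 and 2.19, while those of YAP1, TEAD1, AMOTL2 and LATS2 hold 0 and that of AJUBA ends at -0.03.

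The intervals of the 3 target genes that were not called, AMOTL2, AJUBA and LATS2, end at or below 0.12 on the log2 scale, and those of CCN1, CCN2, ANKRD1 and AXL begin at or above 0.47. A difference between these groups of genes was not tested as such, since they were set apart by their calls. In the vehicle libraries the levels of the 10 genes fell, in CPM per kilobase, in the order CCN2 (63.1), AJUBA (43.7), ANKRD1 (27.4), YAP1 (21.8), LATS2 (7.95), CCN1 (7.36), TEAD1 (6.44), AMOTL2 (5.48), AXL (3.04) and AMOTL1 (0.0217). The library ranges of LATS2 and CCN1, of CCN1 and TEAD1 and of TEAD1 and AMOTL2 overlapped, so these neighbours did not differ beyond their spread. With glycine CCN1 (11.8) passed LATS2 (7.73), ANKRD1 (45.7) stood above AJUBA (39.2), and AXL (6.48) stood above AMOTL2 (5.24) and TEAD1 (6.06), the last by less than the spread between the TEAD1 libraries.

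The share of called genes in the wider Hippo pathway was near the background. Of 24 further kinases and regulators, all tested, 1 was called higher and 1 lower in edgeR (4.17% each), beside the 6.71% and 6.54% of all tested genes above, and their median log2 change was -0.06. TAOK3, a kinase that can activate MST1 and MST2, fell by 0.41 ± 0.065 on the log2 scale (adjusted p = 0.00106), from 39.1 to 29.4 CPM. STK4, which encodes MST1, rose by 0.23 ± 0.073 (adjusted p = 0.0498), and this call was lost in 8 of 15 alternative settings.

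Other YAP and TAZ target genes, 16 in a list that overlaps none of the 10, gave 2 called higher and 0 lower among the 12 tested, beside 6.71% and 6.54% of all tested genes, with 3 higher and 0 lower at an unadjusted p below 0.05 and the same counts as edgeR in DESeq2 and limma-voom. MYOF, a ferlin membrane-repair protein, stood at 8.99, 11.2 and 7.71 CPM with vehicle and at 15.7, 16.2 and 15.7 CPM with glycine. It rose by 0.77 ± 0.113 (adjusted p = 0.000619 in edgeR). NUAK2, a kinase that in turn promotes YAP activity, stood at 3.65, 3.18 and 3.51 CPM with vehicle and at 4.48, 5.28 and 5.69 CPM with glycine. It rose by 0.59 ± 0.127 (adjusted p = 0.00865). Both genes had no overlap between groups. The other 10 tested targets did not pass the threshold, and the median log2 change of the 12 was 0.08. FOXF2, CCDC80, TGFB2 and RBMS3 were too low to test, with no more than 9 counts in any library.

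**Figure D4:**
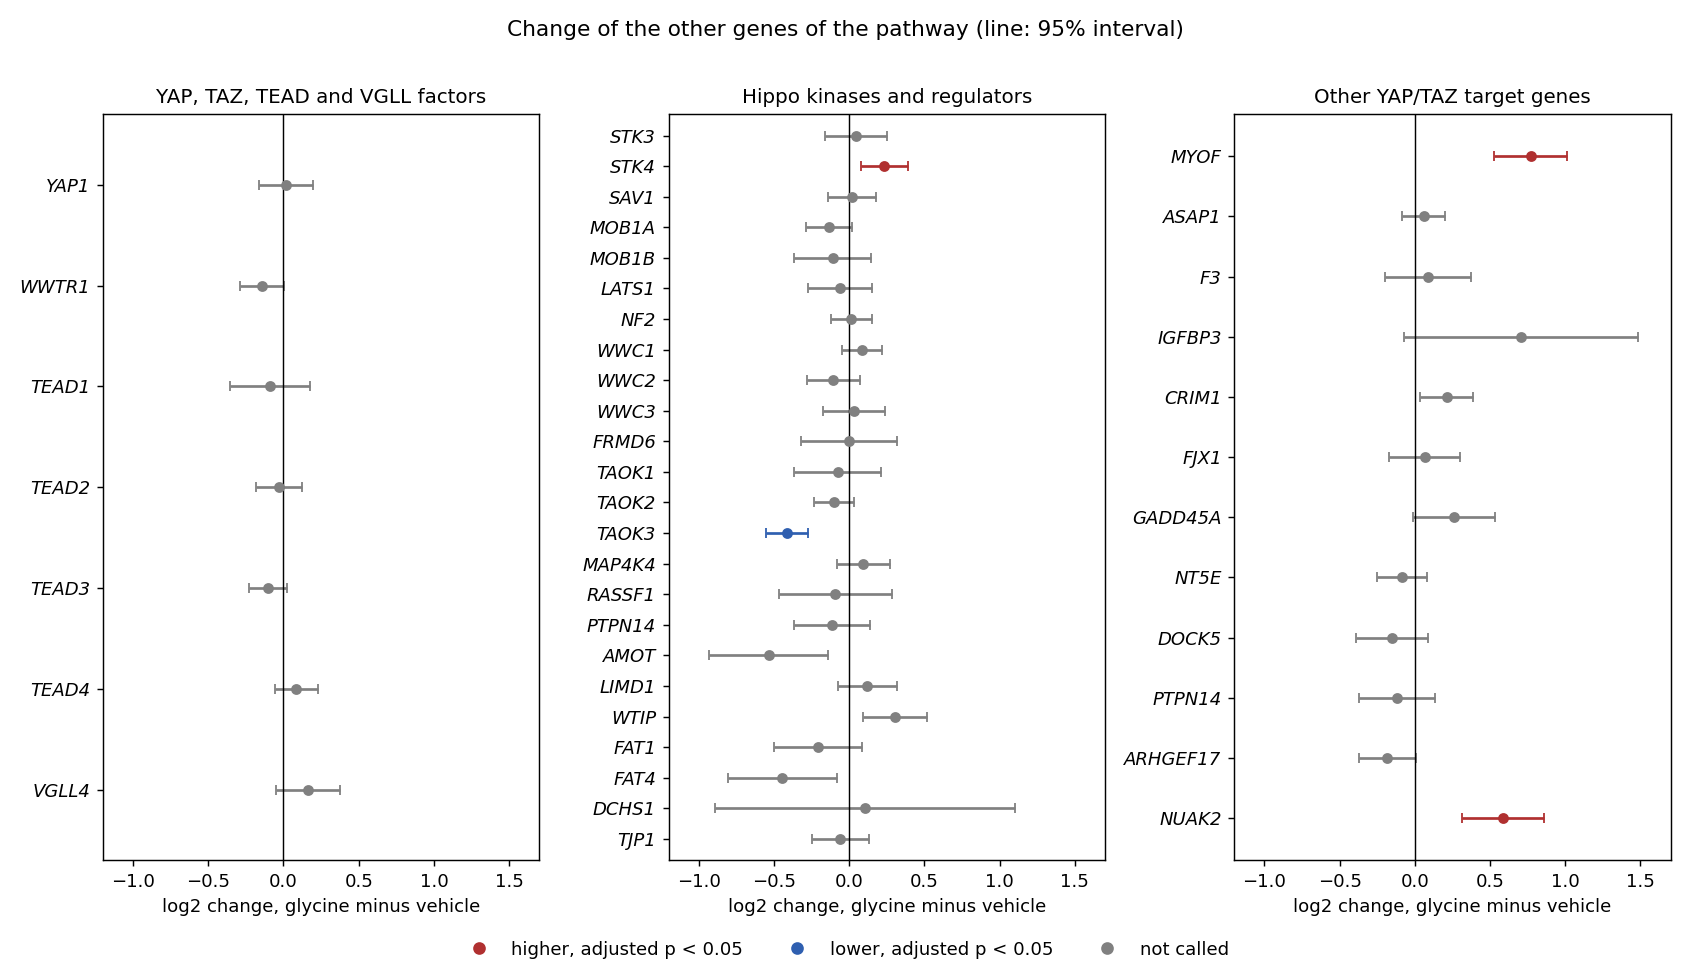
Log2 change, glycine minus vehicle (x axis), with 95% intervals from edgeR (n = 3 per group) for the tested YAP, TAZ, TEAD and VGLL factors, the Hippo regulators outside the 10 genes and the other YAP and TAZ targets, red for higher, blue for lower and grey for not called. The called genes are STK4 (higher) and TAOK3 (lower) among the regulators and MYOF and NUAK2 (higher) among the targets, with 0 called among the 7 factors.

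Serum response factor (SRF), whose co-activators respond to actin, shares several targets with YAP, CCN1 and CCN2 among them. Of 18 SRF and actin genes, all tested, 8 were called higher and 1 lower in edgeR (44.4% and 5.56%, beside 6.71% and 6.54% of all tested genes). The changes were larger than those of CCN1 and CCN2 for TAGLN (1.84), ACTA1 (1.68), CNN1 (1.76), ACTG2 (2.33) and MYL9 (1.03) and smaller for TPM1 (0.30), with adjusted p between 3.11e-08 and 0.0072. ACTG2 had no more than 31 counts in any library and passed the filter on low counts in 3 glycine and 0 vehicle libraries, so it was tested only through the group in which it is high. ACTA2, named after its values were seen as the only one called lower, was at -0.24 (adjusted p = 0.0402), and this call was lost in 6 of 15 alternative settings, the replicate block (adjusted p = 0.0612) and 5 of the fits with a library left out (adjusted p up to 0.126). SRF itself was not called, at -0.11 ± 0.059 (adjusted p = 0.259). The part of SRF in the rise of the YAP target genes was not tested.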

How the data were processed

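RNA was sequenced from HepG2 cells after 24 h with vehicle or glycine (10 mM), 3 libraries each, grouped by their labels. The authors deposited 1 table of raw read counts for each library, without any normalization. Per the labels, the submitters' processing notes name Trimmomatic 0.36, STAR 2.5.2b, featureCounts of Subread 1.5.2 and GRCh38, while the strand setting and annotation release are not given in the sources used here, so reads from a gene and an overlapping antisense gene cannot be told apart. Symbols were found for 56410 of 57500 genes.

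Counts were tested with edgeR 4.0.16 in R 4.3.3 (quasi-likelihood test, two-sided, group only, TMM scaling, expression filter at a minimum count of 10 and a total of 15), with Benjamini-Hochberg adjustment over 15492 genes and a threshold of 0.05. Of these, 4225 had an unadjusted p below the threshold. The SE is the log2 change divided by the square root of F, and ± marks SE for changes and SD for ratios. CPM used scaled library sizes, and levels between genes were divided by gene-model length in kilobases. Totals ranged from 31795489 to 58815986 counts per library, and limits at a count of 0 (3 counts) cover counting error only. The study describes its replicates as biological and made on separate days, while the labels give no culture or day for a library. The p-values set the difference between the groups against the spread between the libraries within a group. Replicates of a group differed by a chi-square of 7.59 to 29.3 per degree of freedom, so none was a duplicate.

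The genes and lists were chosen with earlier results of these data known. The text names the 10 genes, every listed factor and paralog, and in the other lists up to 6 called genes with the smallest p and those that could not be tested; 1 gene that met this rule is left out of its list and not reported here. Alternatives used other scalings and filters, DESeq2 1.42.0, limma 3.58.1 with voom, a replicate block, each library left out in turn and, chosen after seeing the data, removal of the length trend. The test was checked on simulated counts with 200 genes changed by 1 on the log2 scale. It recovered 175 of them and made 15 false calls among 15286 tested genes.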

Additional observations from a re-analysis of the deposited data

How the results depend on the processing

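Among the 10 genes, the calls of CCN1, CCN2, ANKRD1 and AXL held in all 15 alternatives, with log2 changes from 0.56 to 0.74, 0.57 to 0.74, 0.66 to 0.78 and 1.02 to 1.21. AMOTL1 kept its call in the 13 alternatives that gave it an adjusted p (1.39 to 1.76), so that 4 genes were called higher by DESeq2 and with the filter of 1 CPM and 5 elsewhere, and 0 were called lower in any. Over all genes, leaving out 1 library gave between 587 and 926 genes called higher and between 655 and 1010 called lower. The higher count fell to 590 without vehicle replicate 1, 594 without glycine replicate 1, 617 without glycine replicate 2 and 587 without glycine replicate 3, and the lower count to 655 without glycine replicate 2, with fewer samples in each fit.

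Same-numbered libraries did not deviate together (correlations of -0.0577, -0.0268 and -0.00258), and pairs of unlike number ran from -0.198 to 0.214. Deviations were taken from the mean of 3 libraries and the labels give no day, so whether libraries shared a day was not tested. With the replicate block 866 genes were called higher and 918 lower, and 5 of the 10 genes were still called higher; it ended the calls of STK4 and ACTA2 and added that of WTIP among the named genes. In the full 300 bases of each promoter the 11 starts held 10 TEAD core matches in place of 9, the added match being 1 of LATS2 after its start. With 6 to 38 counts per library, AMOTL1 was limited by depth.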

Other observations

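Several long genes of the pathway, but not all, had the same pattern as TEAD1, with vehicle replicate 3 lowest among the vehicle libraries. WTIP and STK3, also longer than 8000 bases, were instead highest in vehicle replicate 3 among the vehicle libraries. FAT1, an atypical cadherin upstream of Hippo signalling, stood at 484, 480 and 308 CPM with vehicle and at 381, 332 and 390 CPM with glycine (adjusted p = 0.366 in edgeR). With vehicle replicate 3 left out FAT1 was called lower (adjusted p = 0.00726), and it was called in no other of the 15 alternatives. PTPN14, a phosphatase that restrains YAP, stood at 37.0, 37.0 and 26.7 CPM against 32.6, 27.1 and 33.4 CPM (adjusted p = 0.570). TAOK1 stood at 72.6, 62.5 and 46.7 CPM against 58.7, 48.9 and 64.8 CPM (adjusted p = 0.761). With the length trend removed FAT1, PTPN14 and TAOK1 were not called either. All these genes were named after their values were seen, and the part of the length trend in the spread of their values was not tested.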
